A study of Xenopus laevis with 4 samples.

Results

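DNA repair genes were examined in limb tissue of Xenopus laevis that either failed to regenerate or regenerated after amputation. The members were matched by gene name, as the probesets with a single gene symbol from the BRCA, RAD, Fanconi, mismatch repair, excision repair, end joining and damage checkpoint families. They were chosen with earlier results of these data known. The name rule matched 44 probesets of 37 genes, out of 15491 probesets tested and 6485 named genes on the array. A probeset is a group of short probes whose brightness is summarised as 1 signal. X. laevis carries 2 related copies of many genes, marked L and S for its long and short chromosomes, and 34 of the member probesets were annotated to an L copy and 10 to an S copy. Brca2 and brip1 were matched by no probeset and were not analysed here. It also matched 4 probesets of genes that act mainly elsewhere, 3 of rad21, which encodes a ring subunit of cohesin, and 1 of parp16, an enzyme of the endoplasmic reticulum membrane.

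The N1 pseudoblastema, from tadpoles of the transgenic N1 line, was compared with the blastema of wild type (WT) siblings. N1 tadpoles carry a single insertion of a transgene in which the Hsp70 heat shock promoter drives Noggin, a secreted inhibitor of BMP ligands, with a linked GFP marker driven in the lens. The line therefore stands for 1 insertion site, and its promoter is not confined to the limb. Both groups descended from 1 backcross to a wild type animal, and both received the same heat shocks, so heat shock is shared by all samples. Hindlimb buds were amputated at stage 52, and the distal stump was collected after 3 days. Each of the 2 samples per group, called biological replicates in the design, pooled the tissue of 20 hindlimbs, and the age of the tadpoles is given as a stage only. The blastema is the mound of dividing cells that rebuilds a limb, and the rounded pseudoblastema of N1 does not go on to do so.

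Cells that copy their genome repair it at the same time. Homologous recombination mends double-strand breaks and stalled forks from the sister chromatid, and BRCA1 with its partner BARD1 is central to it. Base excision repair replaces single damaged bases, nucleotide excision repair removes bulky lesions, mismatch repair corrects copying errors, and end joining ligates broken ends directly. Checkpoint kinases and a sliding clamp hold the cell cycle while repair proceeds. In mammalian cells many of these genes are transcribed most in S phase, so their mRNA is often abundant in dividing tissue.

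The arrays were alike in brightness, with a median signal between 167 and 175 in N1 and between 157 and 161 in WT. The Noggin probeset (nog.L) read 75.6 and 52.2 in N1 and 91.8 and 95.5 in WT. The part of the transcript its probes read is not given in the sources used here, so it does not check the transgene. The summed signal of 10 measured genes of limb mesenchyme was between 6110 and 7549 in N1 and between 7432 and 7604 in WT. At an unadjusted p under 0.05, 2 of their 18 probesets were lower in N1 (grem1.L at 351 and 304 in N1 and at 1034 and 819 in WT, and 1 of hoxa11.S) and 1 was higher (hoxd13.S), while hand2.S was at 3098 and 4420 in N1 and 3638 and 3522 in WT. The summed signal of 10 measured skeletal muscle genes was 3574 and 2368 in N1 and 2069 and 2058 in WT, with 5 of 20 probesets higher in N1 at an unadjusted p under 0.05. That of 4 pigment cell genes was 4458 and 1926 in N1 and 1338 and 1422 in WT, with 3 of 6 probesets higher. That of 6 red cell genes was between 42205 and 49422 in N1 and between 18061 and 21778 in WT, and hba2.L was called higher (limma). That of 4 cartilage genes was between 1110 and 1335 in N1 and between 1825 and 2357 in WT, with 3 of 5 probesets lower. That of 4 epidermal genes was between 3601 and 3740 in N1 and between 1912 and 2485 in WT, with 2 of 6 probesets higher (krt19.L and cldn4.L) and 1 lower (krt19.S). That of 4 nerve and Schwann cell genes was between 3242 and 3519 in N1 and between 3683 and 4809 in WT. No probeset of that list was past that p. Most of its sum came from pmp22.L (2895 and 2699 in N1, 3130 and 3837 in WT). The median log2 difference (N1 minus WT) of the list was 0.41, on the higher side. The sums of 7 leucocyte and 3 endothelial genes overlapped. Past that p, lyz.L was higher in N1 (87.3 and 60.8, against 19.2 and 14.5 in WT). Tek.S was lower (84.4 and 53.5 in N1, against 142 and 122 in WT). For comparison, 4.29% of all probesets were lower in N1 and 6.82% higher at an unadjusted p under 0.05. No marker probeset was at 0. Since the samples are bulk tissue, fewer cells of a type and less RNA per cell cannot be told apart in any value that follows, and the part of these other cell types in the results was not tested.

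The repair genes lay mostly on the lower side in N1 pseudoblastemas, but none was called. Of the 44 probesets, 33 had a lower mean log2 signal in N1 (75%, against 44.1% of all probesets) and 11 a higher one. The median log2 difference (N1 minus WT) was -0.24, against 0.07 over all 15491 probesets, and the middle of the member distribution ran between -0.43 and 0.00 (quartiles). After Benjamini-Hochberg adjustment over all probesets in limma, 0 members were lower and 0 higher at an adjusted p under 0.05, where 0.0129% of all probesets were called lower and 0.11% higher. At an unadjusted p under 0.05, 6 members were lower, or 13.6% of them, against 4.29% of all probesets, and 0 were higher, against 6.82%. With each array centred on its median, 1028 of all probesets were lower and 762 higher at that p, against 664 lower and 1057 higher as deposited, and 6 members were again lower. Both N1 arrays lay below both WT arrays in 17 members (38.6%), where 17.9% of all probesets did so, and above them in 2, where 24.2% of all probesets did. By the ratio of mean signals 7 members (15.9%) were over 1.5-fold lower in N1, against 9.1% of all probesets. By that ratio 0 were over 1.5-fold higher, against 19% of all probesets. Because the members were named with earlier results known, these counts are descriptions.

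**Figure D1:**
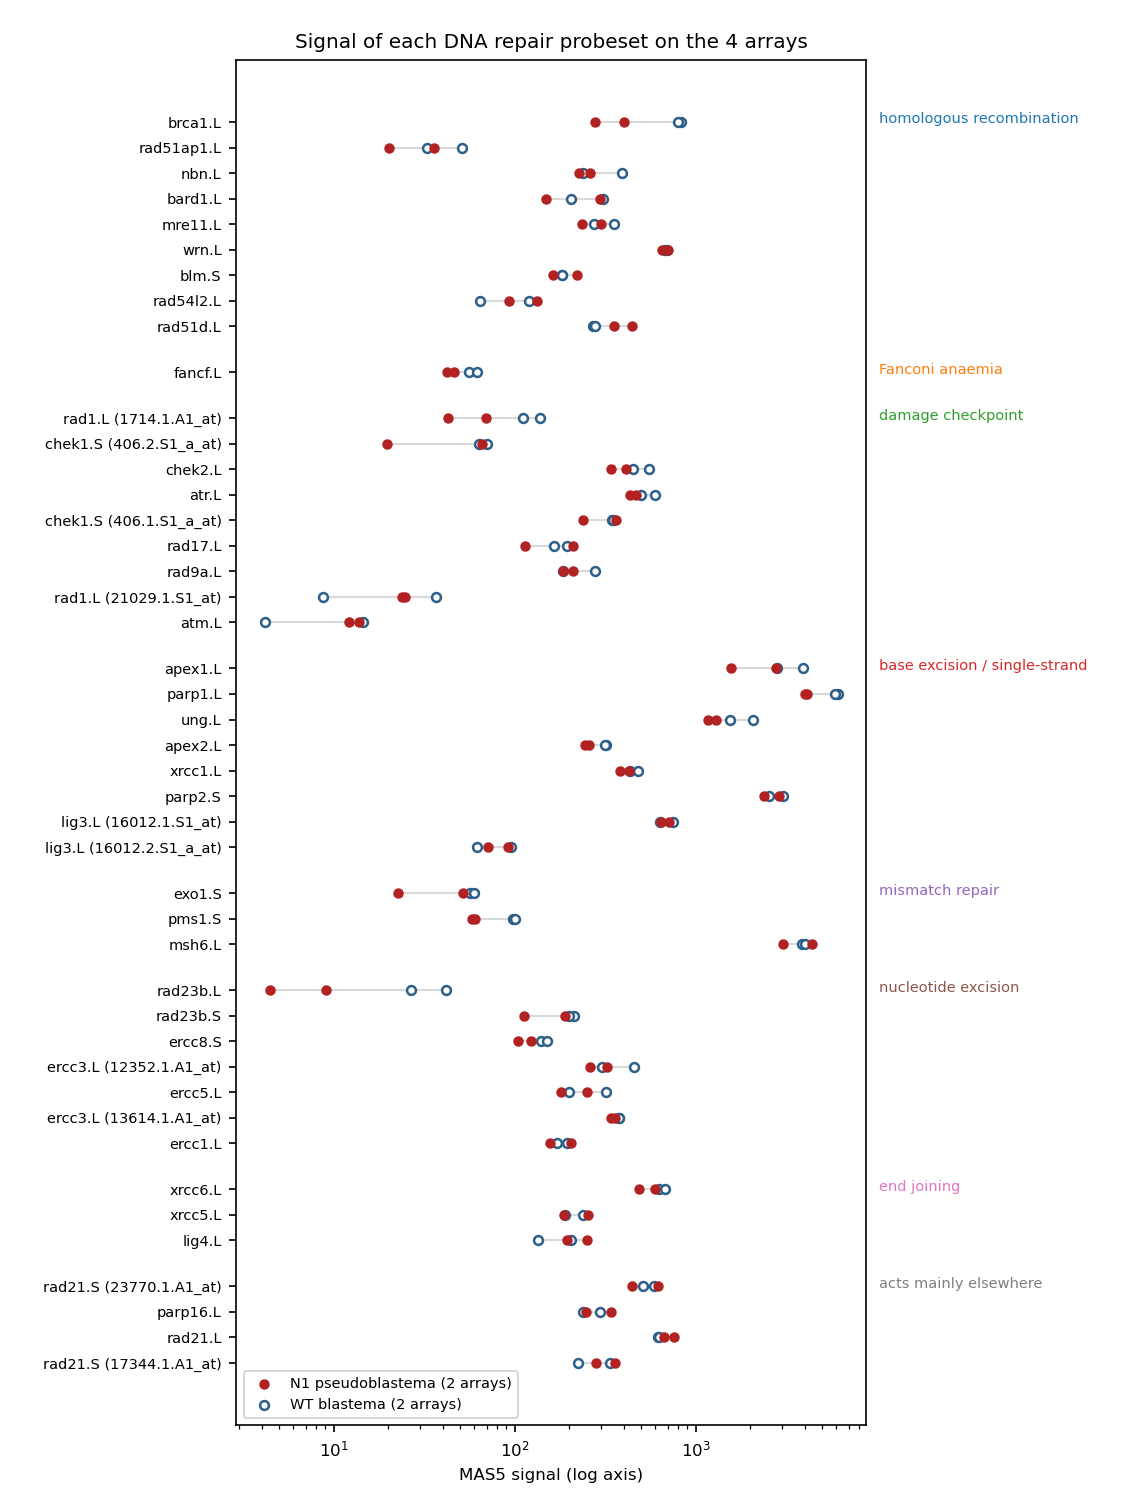
Signal (MAS5, log axis) of each of the 44 DNA repair probesets on the 2 N1 arrays (filled) and the 2 WT arrays (open), grouped by role. In 17 probesets both N1 points lie left of both WT points, and in 2, rad51d.L and rad21.L, they lie right of them.

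Dimmer members were read less precisely. Ranked by mean log2 signal, 32 members lay in the upper part of the array, from its median signal of 165 upwards, and 12 below it, of which 4 were among the dimmest 25% of the array. Among the 32 brighter members 25 were on the lower side (78.1%, against 50.5% of all 7746 probesets of that level). Their median log2 difference was -0.20, against -0.0040 for those 7746 probesets. Among the 12 dimmer members 8 were on the lower side (66.7%, against 37.7% of all probesets below the median). Their median was -0.50, against 0.20 for all probesets below the median. Of the brighter members 2 were over 1.5-fold lower by mean signals (6.25%, against 5.91% of all probesets of that level). Of the dimmer members 5 were (41.7%, against 12.3% of all probesets below the median). At an unadjusted p under 0.05 in the main fit, 4 brighter members were lower in N1 (12.5%, against 7.02% of all probesets of that level). Of the dimmer ones 2 were (16.7%, against 1.55%). Both N1 arrays lay below both WT arrays in 11 brighter members (34.4%, against 24.1%) and 6 dimmer ones (50%, against 11.7%). They lay above in 2 brighter members (6.25%, against 23.2%) and 0 dimmer ones (against 25.3%). The standard error of the log2 difference had a median of 0.27 in the brighter members and 0.53 in the dimmer ones. Counting each gene once by its brightest probeset gave 29 of 37 genes on the lower side and a median of -0.24.

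**Figure D2:**
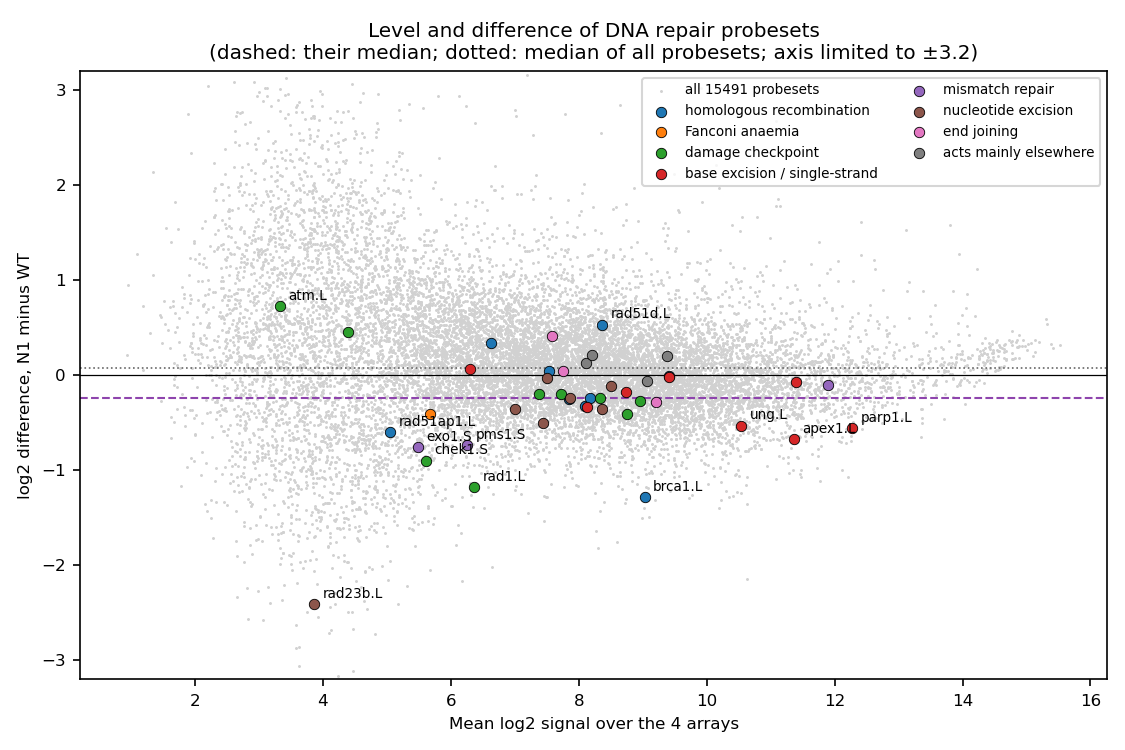
Log2 difference (N1 minus WT) of each probeset against its mean log2 signal over the 4 arrays, with all 15491 probesets in grey and the 44 members coloured by role (vertical axis limited to ±3.2, leaving out the most extreme grey points). The dashed line marks the median of the members (-0.24) and the dotted line that of all probesets (0.07), and brca1.L stands lowest among the members at or above the median level.

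Brca1 had the smallest p of all members. BRCA1 forms a ubiquitin ligase with BARD1 and directs broken ends into homologous recombination. The brca1.L probeset (Xl.12105.1.S1_at) read 278 and 403 on the N1 arrays, against 830 and 802 on the WT arrays. The groups did not overlap, and the N1 arrays differed more from each other than the WT arrays did. The mean was 340.5 ± 88.9 in N1 and 816 ± 19.6 in WT (SD, n = 2 each), so that N1 tissue held 41.7% of the WT signal. The log2 difference was -1.29 with a standard error of 0.25 and a 95% confidence interval of -1.86 to -0.72. Its adjusted p was 0.111 from limma, which does not pass, although by p it stood at place 21 among all probesets on the lower side. The difference kept its sign in all 12 alternatives, at -1.56 to -1.02. The value of -1.56 was that without N1 replicate 2, the N1 array with the higher brca1.L signal. In the fit with the replicate number as a block brca1.L passed (adjusted p = 0.0194 from limma). That fit called 57 of all probesets lower, against 2 in the main fit.

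The partner of BRCA1 was read with far less precision. Bard1.L was at 297 and 150 in N1 and at 205 and 308 in WT, so that the groups overlapped throughout. Its log2 difference was -0.25 ± 0.39 (SE), and its sign turned without N1 replicate 2 (0.24) and without WT replicate 2 (0.04).

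Rad51d went the other way among the recombination genes. Its protein takes part in the early steps of recombination on single-stranded DNA. Rad51d.L was at 356 and 443 in N1, against 269 and 280 in WT, and the groups did not overlap. The log2 difference of 0.53 ± 0.25 (SE) was the largest on the higher side among members at or above the median level, and it did not pass (adjusted p = 0.493 from limma). Over the 12 alternatives the difference lay between 0.38 and 0.69, the latter without N1 replicate 1.

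The other 6 recombination members were the subunits of the break sensor MRE11-NBN, the RecQ helicases blm and wrn, the recombination cofactor rad51ap1, and rad54l2. The last is named for its likeness to rad54 and was grouped here by that name, which does not show that it acts in recombination. Mre11.L was at 301 and 235 in N1 and at 276 and 356 in WT. Nbn.L was at 262 and 227 in N1 and at 240.0 and 392 in WT. In both genes 1 WT array lay between the N1 arrays. Rad51ap1.L was dim, at 35.9 and 20.3 in N1 and at 51.1 and 32.6 in WT. Wrn.L differed little, at 705 and 656 in N1 and at 696 and 674 in WT, with a log2 difference of -0.01 and a 95% confidence interval of -0.47 to 0.45. Blm.S had a log2 difference of 0.05 and rad54l2.L one of 0.34, both with overlapping groups. Over the 9 members grouped under recombination, with rad54l2.L counted, the median log2 difference was -0.24. Of these 1, brca1.L, was below an unadjusted p of 0.05.

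The 1 Fanconi member was fancf.L, a subunit of the core complex that marks crosslinked DNA for repair. It was at 42.4 and 46.2 in N1 and at 56.0 and 61.9 in WT. The groups did not overlap, and the log2 difference was -0.41 ± 0.48 (SE) at a low signal.

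**Figure D3:**
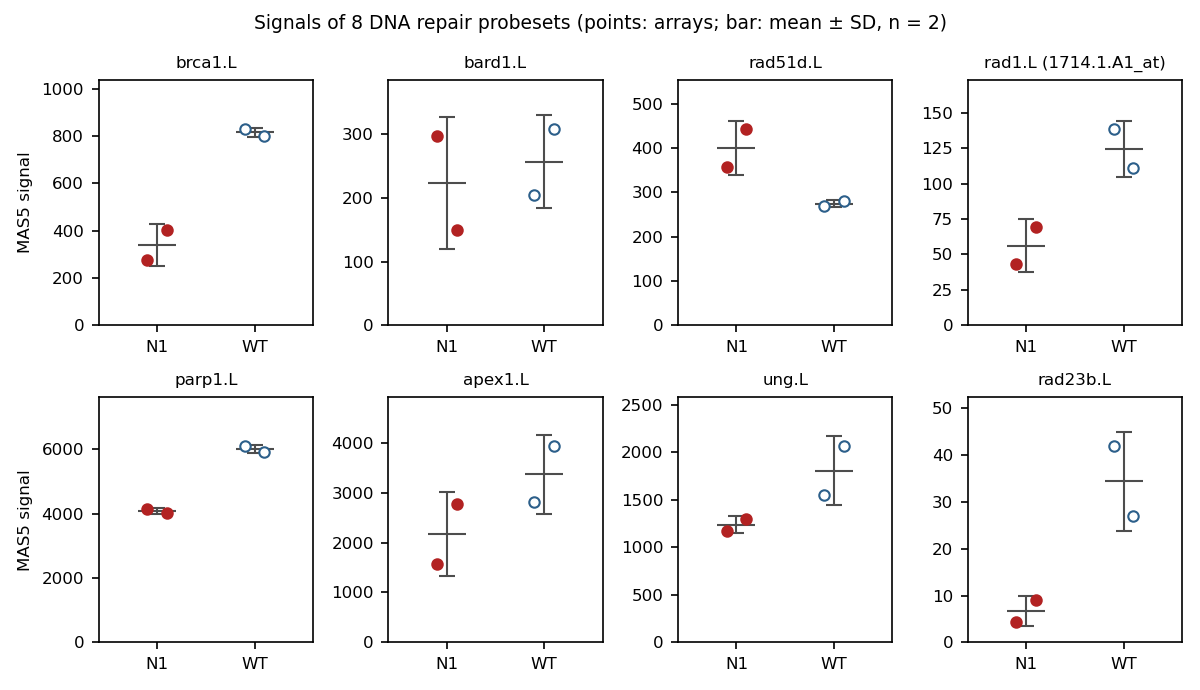
MAS5 signals (linear axis from 0) of 8 repair probesets on the N1 arrays (filled, left) and WT arrays (open, right), with the mean and SD of 2 arrays. Brca1.L, rad1.L, parp1.L, ung.L, apex1.L and rad23b.L lie lower in N1 without overlap, rad51d.L lies higher, and bard1.L overlaps.

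Base excision and single-strand break repair held 3 of the 6 members with an unadjusted p under 0.05. Parp1, which binds broken strands and builds chains of ADP-ribose, had the smallest standard error of all members. Parp1.L was at 4148 and 4001 in N1, against 6087 and 5925 in WT. The replicates differed 1.04-fold in N1 and 1.03-fold in WT while the groups did not overlap, and N1 held 67.8% of the WT mean. Its log2 difference was -0.56 with a standard error of 0.16 and a 95% confidence interval of -0.94 to -0.18 (adjusted p = 0.259 from limma). With an array left out it lay between -0.59 and -0.53.

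Ung encodes the glycosylase that removes uracil from DNA. Ung.L was at 1174 and 1303 in N1, against 1549 and 2062 in WT, and the groups did not overlap. The log2 difference was -0.53 ± 0.21 (SE) (adjusted p = 0.396 from limma). Without WT replicate 2, the array with the highest ung.L signal, it was -0.33.

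Apex1 encodes the endonuclease that cuts the strand at the site the glycosylase leaves. Apex1.L was at 1570 and 2763 in N1, against 2802 and 3927 in WT. The higher N1 signal and the lower WT signal were nearly equal, so the groups only just separated. The log2 difference was -0.67 ± 0.29 (SE, adjusted p = 0.434 from limma). It was -1.08 without N1 replicate 2 and -0.26 without N1 replicate 1.

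The remaining members of this pathway differed less. Apex2.L, a relative of apex1, was at 244 and 256 in N1 and at 318 and 314 in WT. Xrcc1.L, the scaffold of single-strand break repair, was at 428 and 381 in N1 and at 434 and 479 in WT. Both were lower in N1 without overlap, by log2 differences of -0.34 and -0.18. Parp2.S was at 2889 and 2394 in N1 and at 2535 and 3028 in WT, with a difference of -0.08, whose sign turned without N1 replicate 2 (0.06) and without WT replicate 2 (0.05). DNA ligase III, which seals the nick with xrcc1, was read by 2 probesets of lig3.L, with log2 differences of -0.02 (Xl.16012.1.S1_at) and 0.06 (Xl.16012.2.S1_a_at). Over all 8 members of the pathway the median was -0.26 and 7 were on the lower side.

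Checkpoint genes were on the lower side in 7 of 9 probesets, with a median of -0.24. Rad1 belongs to the sliding clamp that RAD17 loads at damaged DNA. One of its probesets (rad1.L, Xl.1714.1.A1_at) was at 43.0 and 69.7 in N1, against 139 and 111 in WT, without overlap. Its log2 difference was -1.18 ± 0.44 (SE, adjusted p = 0.376 from limma). The other rad1.L probeset (Xl.21029.1.S1_at) was among the dimmest 25% of the array, at 24.0 and 24.9 in N1 and at 8.70 and 36.8 in WT. There both N1 signals lay between the WT signals and the log2 difference was 0.45 ± 0.84 (SE). The probesets of rad1 thus did not give the same direction, and the lower value rests on 1 of them.

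The checkpoint kinases were lower by smaller amounts. Chek2.L was at 341 and 412 in N1 and at 452 and 551 in WT. Atr.L, a kinase that responds to stalled forks, was at 471 and 437 in N1 and at 599.5 and 499.97 in WT. Both separated without overlap, with log2 differences of -0.41 ± 0.24 and -0.27 ± 0.23 (SE). Chek1.S, the kinase downstream of ATR, had 1 low N1 array in each of its probesets. The probeset Xl.406.1.S1_a_at read 239 and 365 in N1 and 347 and 351 in WT, and Xl.406.2.S1_a_at read 19.6 and 65.8 in N1 and 70.6 and 63.6 in WT. Without N1 replicate 1 these differences were 0.06 and -0.03, against -0.24 and -0.90 with all arrays. The clamp gene rad9a.L and its loader rad17.L had differences of -0.20 each with overlapping groups. Atm.L, the kinase of double-strand breaks, was among the dimmest 25% of the array, with signals of 4.17 to 14.6 over all arrays. Its log2 difference of 0.73 ± 0.98 (SE) was the largest on the higher side of all members, with overlapping groups.

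Mismatch repair had 3 members. Msh6.L, whose protein recognises mispaired bases, was at 4413 and 3031 in N1 and at 3870 and 4016 in WT. The WT signals lay between the N1 signals, and the log2 difference was -0.11 with a 95% confidence interval of -0.59 to 0.37. Pms1.S, a MutL homologue, was at 60.1 and 58.4 in N1, against 97.8 and 100.1 in WT. These replicates were close and the groups apart, with a log2 difference of -0.74 ± 0.41 (SE) at a level where the fit assigns a wide error (adjusted p = 0.557 from limma). Exo1.S, an exonuclease that removes the faulty strand, was at 51.9 and 22.8 in N1 and at 56.4 and 59.8 in WT. Its log2 difference was -0.76, and -0.16 without N1 replicate 2.

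All 7 probesets of nucleotide excision repair were on the lower side, with a median of -0.36. Rad23b, a partner of the damage sensor XPC, had the widest range. Rad23b.L was at 4.43 and 9.04 in N1, against 41.9 and 26.9 in WT, and the probeset was among the dimmest 25% of the array. Its log2 difference was -2.41 ± 0.82 (SE, adjusted p = 0.332 from limma), and it shrank to -0.47 with 64 added to each signal. Rad23b.S was at 112 and 190 in N1 and at 213 and 200 in WT, a difference of -0.50. A further probeset that matches both copies (rad23b.L;rad23b.S) stood outside the rule, at 1517 and 1973 in N1 and at 2161 and 1999 in WT, with a difference of -0.26 (adjusted p = 0.663 from limma). The differences of the other probesets of the gene were thus smaller than that of rad23b.L.

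Ercc3 encodes the XPB helicase of the general transcription factor TFIIH. Its probesets read 261 and 325 in N1 and 302 and 459 in WT (ercc3.L, Xl.12352.1.A1_at), and 359 and 339 in N1 and 377 and 376 in WT (Xl.13614.1.A1_at). The log2 differences were -0.36 and -0.11. Ercc8.S, needed for repair of transcribed strands, was at 123 and 104 in N1 and at 139 and 151 in WT. The remaining members of this pathway, ercc5.L and ercc1.L, had differences of -0.24 and -0.03 with overlapping groups.

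End joining was the one repair pathway with a median on the higher side (0.04), over only 3 members. Lig4.L, the ligase of this pathway, was at 250.0 and 195 in N1 and at 206 and 134 in WT, with a log2 difference of 0.41 ± 0.34 (SE). The Ku subunits that bind the broken ends did not go together. Xrcc6.L was at 485 and 594 in N1 and at 628 and 674 in WT, lower without overlap by a difference of -0.28. Xrcc5.L was at 256 and 188 in N1 and at 190 and 239 in WT, a difference of 0.04 with a 95% confidence interval of -0.66 to 0.75.

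The 4 probesets of genes that act mainly outside repair had a median of 0.16. Rad21.L was at 760 and 673 in N1 and at 617 and 627 in WT, higher without overlap by a log2 difference of 0.20. The rad21.S probesets had differences of -0.06 (Xl.23770.1.A1_at) and 0.22 (Xl.17344.1.A1_at), each with overlapping groups, and parp16.L one of 0.12. Leaving these 4 out gave a median of -0.25 over 40 members, 32 of them on the lower side.

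**Figure D4:**
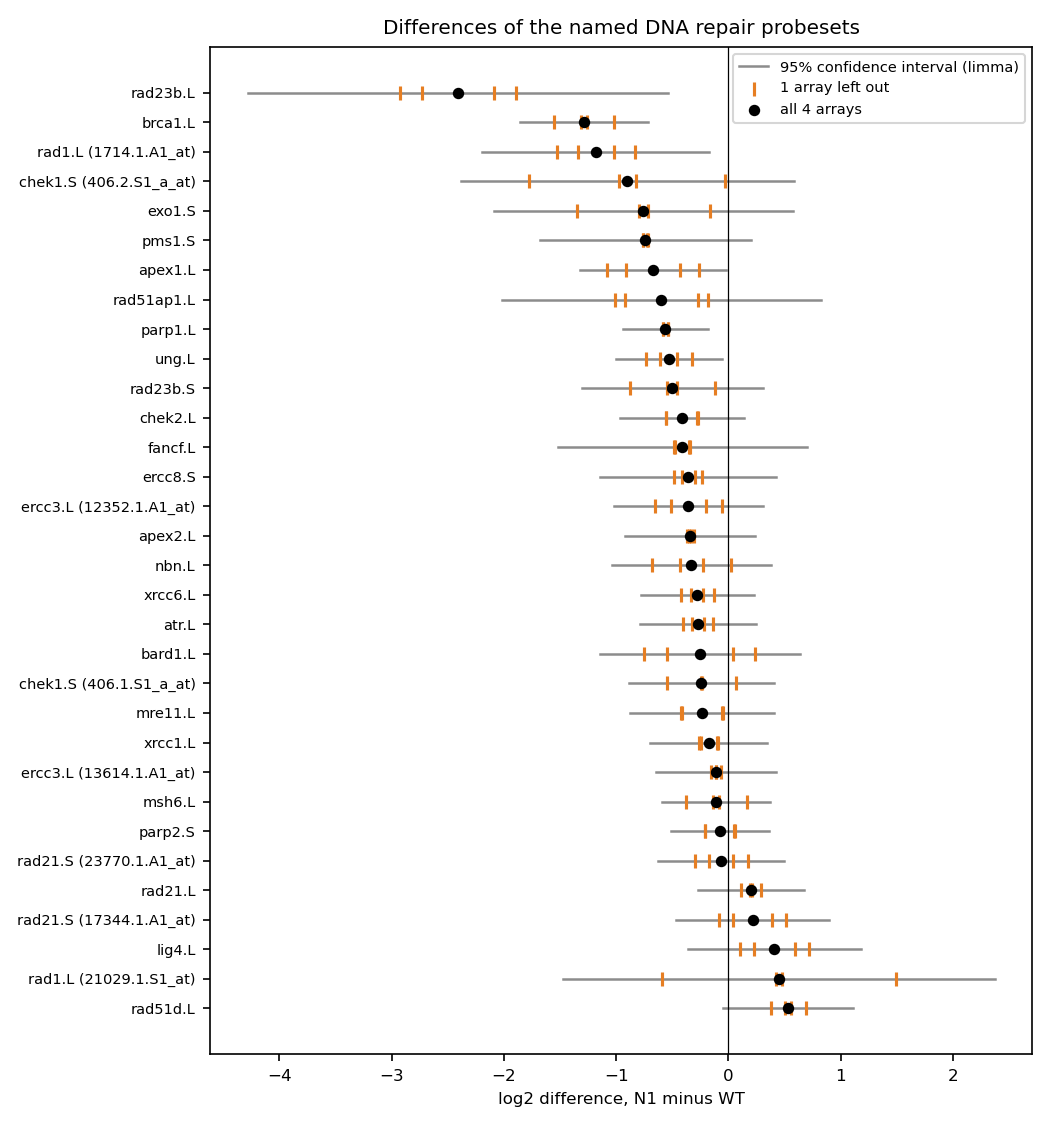
Log2 difference (N1 minus WT) of the 32 named repair probesets with its 95% confidence interval from limma (line), and the values with 1 array left out (ticks). The intervals of rad23b.L, brca1.L, rad1.L (Xl.1714.1.A1_at), apex1.L, parp1.L and ung.L lie below 0.

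No single array held the lower signals. The lowest of the 4 signals was on the array of N1 replicate 1 in 15 members, of N1 replicate 2 in 18, of WT replicate 1 in 7 and of WT replicate 2 in 4. Over all probesets these shares were 22.6%, 26.0%, 22.4% and 29.0%. The highest signal was on WT replicate 2 in 18 members, on WT replicate 1 in 12 and on each N1 array in 7. Over all probesets these shares were 21.7% for WT replicate 2, 18.7% for WT replicate 1, 37.6% for N1 replicate 1 and 22.1% for N1 replicate 2. Without WT replicate 2 the median log2 difference of the members was -0.12 (0.04 over all probesets) and 2 members were lower at an unadjusted p under 0.05 (4.55%, against 1.40% of all). Without WT replicate 1, which left 3 of them (6.82%, against 2.12%), the median was -0.30 (0.06 over all probesets). Without N1 replicate 2 it was -0.17 (0.15 over all probesets), with 8 members at that p (18.2%, against 8.15%). Without N1 replicate 1, the array with the highest muscle and pigment cell signals, it was -0.24 (0.02 over all probesets), with 4 members (9.09%, against 6.07%).

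Genes that work beside the members were compared by lists. These lists share the 4 arrays with the members and are not independent of them. Among repair partners outside the rule, 57 of 106 listed genes were measured by 74 probesets. Of these probesets 50 were on the lower side (67.6%, against 44.1% of all probesets), with a median log2 difference of -0.16. Both N1 arrays lay below both WT arrays in 27 (36.5%, against 17.9% of all probesets) and above them in 9 (12.2%, against 24.2%). Of the 74 probesets 46 were at or above the median level, where these shares of all probesets were 24.1% and 23.2%. None passed adjustment in limma. At an unadjusted p under 0.05 there were 2 lower (2.70%, against 4.29% of all probesets) and 1 higher (1.35%, against 6.82%). The lower ones were eme1.L, a subunit of a junction-cutting nuclease, at 167 and 197 in N1 and at 341 and 319 in WT, and ruvbl2.L, a chromatin remodelling ATPase, at 260 and 238 in N1 and at 391 and 402 in WT. The higher one was tdp1.L, a phosphodiesterase that frees trapped topoisomerase, at a low 34.4 and 32.0 in N1 against 12.6 and 4.11 in WT. A brighter tdp1.L probeset overlapped, at 87.8 and 116 in N1 and at 68.1 and 92.7 in WT.

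The genes of the replication fork also lay mostly on the lower side. Of 56 listed genes 49 were measured by 63 probesets, with a median log2 difference of -0.26. On the lower side were 51 of them (81.0%, against 44.1% of all probesets). Both N1 arrays lay below both WT arrays in 31 probesets (49.2%, against 17.9% of all probesets) and above them in 4 (6.35%, against 24.2%). Of the 63 probesets 50 were at or above the median level, where these shares of all probesets were 24.1% and 23.2%. None passed adjustment in limma. At an unadjusted p under 0.05 there were 7 lower (11.1%, against 4.29% of all probesets) and 1 higher (1.59%, against 6.82%). The clamp loader rfc2.L was at 1467 and 1898 in N1 and at 2694 and 2622 in WT. The helicase subunit mcm2.L was at 2603 and 3117 in N1 and at 3875 and 4611 in WT. For the polymerase gene pole.L one probeset was lower in N1 (857 and 1239, against 1406 and 1950 in WT). The other, among the dimmest 25% of the array, was higher (45.1 and 44.9, against 9.85 and 8.90 in WT). Equally dim among the lower ones were orc5.L (7.64 and 8.93, against 42.5 and 38.9 in WT) and a probeset of pola2.L (7.43 and 6.83, against 44.1 and 20.2 in WT). The partner and fork lists share 6 measured genes.

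Mitotic genes were spread to both sides. Of 38 listed genes 33 were measured by 58 probesets, with a median of -0.04. On the lower side were 32 of them (55.2%, against 44.1% of all probesets and 50.5% of those at or above the median level). Both N1 arrays lay below both WT arrays in 17 probesets (29.3%, against 17.9% of all probesets). They lay above them in 8 (13.8%, against 24.2%). Of the 58 probesets 44 were at or above the median level, where these shares of all probesets were 24.1% below and 23.2% above. None passed adjustment in limma, and at an unadjusted p under 0.05 there were 1 lower, kif2c.S (1.72%, against 4.29% of all probesets), and 2 higher, anln.L and tpx2.S (3.45%, against 6.82%), each in 1 of several probesets of the gene. Tpx2.S, a spindle assembly factor, was at 3640 and 3251 in N1 and at 2661 and 2406 in WT.

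Genes that p53 is known to induce in mammals, with other damage response genes, lay on the higher side. Of 23 listed genes 11 were measured by 18 probesets, 15 of them on the higher side, with a median log2 difference of 0.50. The 3 on the lower side made up 16.7%, against 44.1% of all probesets. None passed adjustment in limma, and at an unadjusted p under 0.05 there were 5 higher (27.8%, against 6.82% of all probesets) and 0 lower (against 4.29%). Sesn1.L, a stress-induced regulator of growth signalling, was at 446 and 415 in N1, against 175 and 121 in WT, by one probeset (log2 difference of 1.56, adjusted p = 0.109 from limma). Its other probeset was at 601 and 977 in N1 and at 552 and 507 in WT. Rrm2b.S, a ribonucleotide reductase subunit that serves repair, was at 3839 and 3226 in N1 and at 2467 and 2520 in WT. Ppm1d.L, a phosphatase that switches checkpoint signalling off, had a difference of 1.07 by one probeset (ending in A1_at) and of 0.70 with overlap by another (ending in A1_x_at). Gadd45g.L was at 289 and 231 in N1 and at 193 and 100.2 in WT, and plk3.L was dim. The 3 probesets on the lower side were ccng1.L (-0.42), the brightest of the list, plk2.L (-0.29) and 1 of ppm1d.S (-0.15), all with overlapping groups. Also overlapping, on the higher side, were gadd45a.S (0.66), the other ppm1d.S probeset (0.50), gadd45g.S (0.32), bax.S (0.09), mdm4.S (0.08) and plk3.S (0.04).

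**Figure D5:**
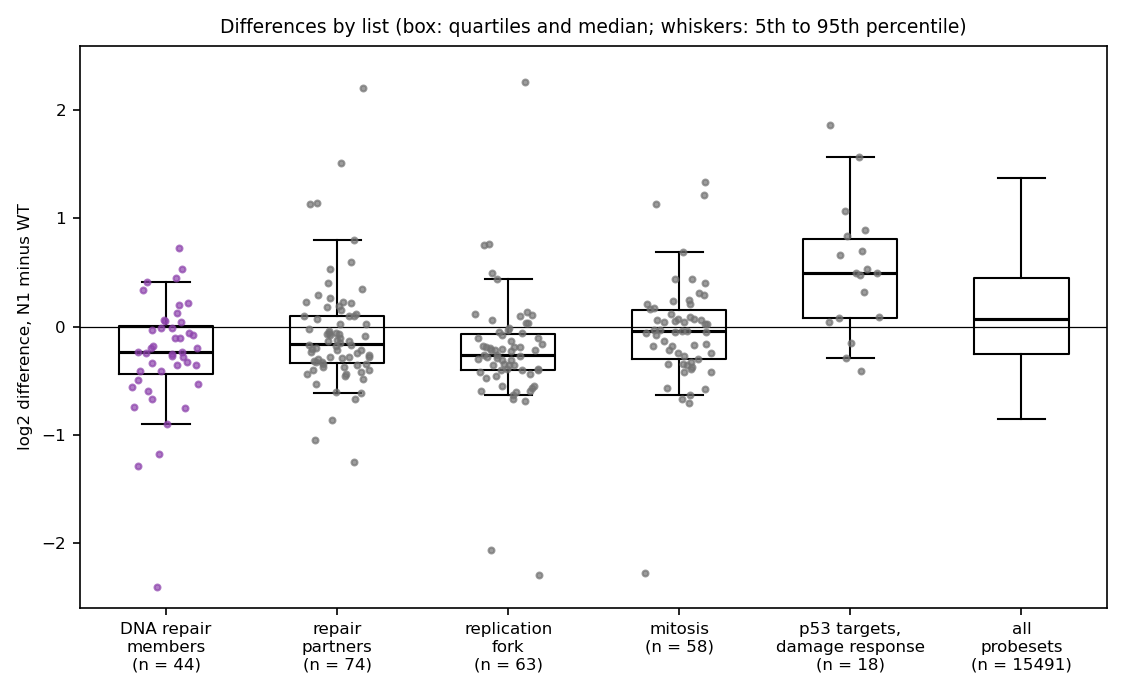
Log2 difference (N1 minus WT) of every probeset in the repair members and 4 further lists (points), with boxes for quartiles and medians and whiskers for the 5th to 95th percentile, beside all 15491 probesets. The medians are -0.24 for repair members, -0.16 for their partners, -0.26 for the replication fork, -0.04 for mitosis, 0.50 for p53 targets and 0.07 for all probesets.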

How the data were processed

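RNA of 4 pools was hybridised to Affymetrix X. laevis GeneChips after 2-cycle labelling. The authors deposited MAS5 signal intensities on a linear scale, made in GCOS (per the labels; versions and detection calls not given in the sources used here) and scaled so that each array had a mean of 500 after trimming 2% at each end. Of 15611 probesets, 120 controls were left out. Of the 15491 tested, 9304 had 1 symbol in the platform table, 195 several and 5992 none. All 44 member symbols were found in the RefSeq table of assembly Xenopus_laevis_v10.1. Log2 intensities of N1 and WT were compared in limma 3.58.1 (R 4.3.3; lmFit, eBayes with a variance trend), with Benjamini-Hochberg adjustment over all probesets at 0.05 and no filter. The script was tested on simulated data. With 2 arrays a group the smallest two-sided p of an exact permutation test is 0.333, and the number of arrays limits precision. The sources call the pools biological replicates of sibling tadpoles from 1 backcross.

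Named were the probesets of brca1 and bard1, the 25 members with the smallest p, the 5 brightest, the 2 with the smallest p of each role, and the other probesets of those genes, 32 in all. Further members were named after their values were seen. The members and lists were chosen with earlier results of these data known. No sequences were used here. Alternatives were no variance trend, median centring, quantile normalisation, 16 or 64 added before log2, filters at the median or 25th percentile of the level, the replicate number as a block, and each array left out. Whether probes of one gene copy also read the other is not known here.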

Additional observations from a re-analysis of the deposited data

How the results depend on the processing

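The median log2 difference of the repair probesets stayed below 0 in all alternatives. It was -0.35 with median centring, which moves all differences by -0.11, -0.29 after quantile normalisation, -0.18 with 64 added, and between -0.30 and -0.12 with 1 array left out. No repair probeset was called higher in any alternative that kept all arrays. The number called lower was 1 (brca1.L, adjusted p = 0.0194 from limma) with the replicate number as a block. Calls of members in either direction with 1 array left out are not given, because a group then holds a single array. Same-numbered arrays did not deviate together (r = 0.028 across all probesets), so the numbers are not taken to pair the samples, and over all probesets the block gave 57 lower and 143 higher calls, against 2 and 17. At an unadjusted p under 0.05 the repair probesets on the lower side numbered 3 with the level filter at the median, which tests 32 of them (9.38%, against 6.39% of all probesets), and between 2 and 8 with 1 array left out (4.55% to 18.2%, against 1.40% to 8.15%), when those on the higher side numbered 0 to 1. Both N1 arrays lay below both WT arrays in 11 with that filter (34.4%, against 24.1% of all probesets). With 1 array left out, when fewer arrays have to separate, N1 lay below in 21 to 28 (47.7% to 63.6%, against 28.7% to 35.7%). It then lay above in 6 to 8, for which the share of all probesets is not given here. Over all probesets the calls higher and lower in N1 were 0 and 0 without the variance trend, 32 and 4 with the filter at the median, and 58 and 10 at the 25th percentile. Those higher were 8 with median centring and 4 with 64 added. With 1 array left out those higher ranged from 0 to 156 and those lower from 0 to 178; the cause was not tested.

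With 1 array left out the log2 difference crossed 0 for bard1.L (-0.75 to 0.24), chek1.S (Xl.406.1.S1_a_at, -0.54 to 0.0647), msh6.L (-0.38 to 0.16), nbn.L (-0.68 to 0.0255), parp2.S (-0.21 to 0.0603), rad1.L (Xl.21029.1.S1_at, -0.59 to 1.49) and the rad21.S probesets (-0.0798 to 0.51 for Xl.17344.1.A1_at and -0.30 to 0.17 for the other). The other 24 named repair probesets kept their sign in every alternative run on them. A difference of the usual size here lies within the errors that 2 arrays a group allow, most of all at signals below the median level.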
